A study of Mus musculus with 6 samples.

Results

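The miRNAs described here are mmu-miR-191, mmu-miR-425, mmu-miR-186, mmu-miR-484 and mmu-miR-320 (mmu, mouse), which are found in many cell types and are often chosen as references in RT-qPCR. They were taken by name, as the mouse assays of these miRNAs without a mark for the opposite strand, and make up 5 of the 750 miRNA assays measured. The data are TaqMan low-density arrays of monocytes freshly isolated from 3 DBA/1 mice, each of which gave 1 Ly6Chigh (classical, inflammatory) and 1 Ly6Clow (non-classical, patrolling) sample, so that 6 samples, 3 per subset, were compared. The labels name no genotype change and no agent for any sample, and the age of the mice and the purity of the sorted cells are not given in the sources used here. From each sample, 10 ng of RNA was reverse transcribed and measured on 2 array cards, of which the first to be listed is named card A and the other card B. All 5 assays are on card A.

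In RT-qPCR, each well returns a threshold cycle (Ct), the cycle at which its fluorescence passes a set level, and each further cycle stands for a loss of 1 log2 unit of template. To correct for the amount and quality of RNA, a reference RNA that is taken to be equal in all samples is subtracted from every Ct. The reference used by the authors was U6, a small nuclear RNA of the spliceosome that is made by RNA polymerase III and not by the miRNA pathway, whereas a reference miRNA passes through the same extraction and stem-loop priming as the miRNAs it is compared with. miR-191 and miR-425 are cut from the same primary transcript. The precursors of miR-484 and miR-320 are short hairpins that are known to be cut by Dicer without Drosha.

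Mature sequences were found in RefSeq (GRCm38.p6) for 4 of the 5 miRNAs and are shown because an assay reads 1 mature strand, and because they let the cluster partners miR-191 and miR-425 be compared in seed. The assay names give no arm. The 5′ arms of miR-191, miR-425 and miR-186 are printed, on the assumption, which the files do not settle, that names without a mark stand for these strands. Capitals mark the seed (bases 2 to 8, counted from the 5′ end), through which a miRNA pairs with its target mRNAs.
miR-191-5p: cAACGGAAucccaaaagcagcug
miR-425-5p: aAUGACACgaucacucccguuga
miR-186-5p: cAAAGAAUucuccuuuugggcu
miR-484: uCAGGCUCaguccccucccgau
The 4 miRNAs carry 4 different seeds. Among the 1679 named mature mouse miRNAs of this annotation, the seed of miR-425-5p was shared by 1 other, miR-489-3p, and those of miR-191-5p, miR-186-5p and miR-484 by none. In the annotation, the genes of miR-191 and miR-425 lie within Dalrd3, with no further miRNA gene closer to either than 10000 bases. The miR-186 gene lies within Zranb2. In the table used, no gene contains those of miR-484 and miR-320, and miR-186, miR-484 and miR-320 have no miRNA neighbour in that window.

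The Ly6Chigh sample of mouse 1 stood apart on card A, and its values are therefore named separately. On card A, 46 miRNA assays were under Ct 35 in every sample but this one and 45 in this one alone. On card B, 1 miRNA assay was under 35 in every sample but this one, and 2 in this sample alone. Over 127 card A assays (those below Ct 35, taken here as detected, in 3 samples or more), Spearman's rho of its Ct was 0.10 to 0.15 against the other 5 samples and 0.73 to 0.94 among these (across assays, which are not independent replicates). The miRNAs fixed as markers of monocytes, miR-223, miR-142-3p and miR-142-5p, which are abundant in myeloid and other blood cells, were all undetected in it, at a Ct of 40, and all 3 were detected in each of the other 5 samples. Of these, miR-223 had a Ct of 21.95 and 16.96 in the Ly6Chigh samples of mice 2 and 3 and of 18.97, 18.97 and 18.95 in the Ly6Clow samples of mice 1, 2 and 3. Conversely, miR-122, the liver miRNA, was detected in this sample at a Ct of 28.98, and elsewhere only in mouse 3, where the weaker signal was at 33.01. These markers are shared by other blood cells, so that their presence in 5 samples does not single out monocytes or a subset, whereas on card A of the sixth sample they were undetected. Of the 3 lymphocyte markers (miR-150, miR-342-3p and miR-181a), 3 were under 35 in each of the other 5 samples and 2 in this one. The erythroid miR-451 and the platelet and endothelial miR-126-3p were detected in the other 5 samples, at a Ct of 28.97 or more, and miR-144 in none. Of the other markers, the epithelial miR-200c was under 35 in 6 samples, miR-141 and the pancreatic miR-375 in 4, the neuronal miR-124 in 3 and, of the muscle miRNAs, miR-133a in 1 and miR-1 and miR-206 in none. The part of these cell types in the values below was not tested.

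In raw Ct, miR-191, miR-484, miR-186 and miR-320 were present in every sample but the Ly6Chigh sample of mouse 1, where miR-186 alone of them gave a signal. Only miR-186 was thus under a Ct of 35 in all 6 samples, and 24 of the 30 reactions of the 5 assays gave a signal. miR-191 was undetected (Ct 40) in the Ly6Chigh sample of mouse 1 and had a Ct of 23.98 and 21.97 in those of mice 2 and 3. In the Ly6Clow samples of mice 1, 2 and 3, its Ct was 19.97, 19.97 and 23.99. The strongest signals of miR-191 were therefore those of the Ly6Clow samples of mice 1 and 2, and the third Ly6Clow sample was as weak as the Ly6Chigh sample of mouse 2. For miR-484, the Ct was 40 (undetected), 25.97 and 22.98 in Ly6Chigh and 21.99, 21.98 and 24.96 in Ly6Clow monocytes of mice 1, 2 and 3. miR-186 had a Ct of 33.96, 28.96 and 25.95 in Ly6Chigh and of 24.96, 24.96 and 27.98 in Ly6Clow monocytes. miR-320 was at 40 (undetected), 29.96 and 26.94 in Ly6Chigh and at 27.98, 26.97 and 28.97 in Ly6Clow monocytes. In all 4, the Ly6Chigh sample of mouse 2 and the Ly6Clow sample of mouse 3 lay above the Ly6Clow sample of mouse 2 in Ct, and the subsets overlapped once the Ly6Chigh sample of mouse 1 was set aside. In a bulk sample, fewer cells that hold a miRNA and less of it per cell cannot be told apart.

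miR-425 followed another course than its cluster partner. It was detected in 3 samples, at a Ct of 23.97 and 26.00 in the Ly6Chigh samples of mice 1 and 3 and of 27.99 in the Ly6Clow sample of mouse 3, and in no other. It was undetected in both samples of mouse 2 and in the Ly6Clow sample of mouse 1, in which miR-191 was as strong as in any sample. The sample with the strongest miR-425 was the sample in which miR-191 was undetected. This was the Ly6Chigh sample of mouse 1, whose card A values were unlike those of the other samples (Spearman's rho 0.10 to 0.15). Without it, miR-425 was detected in mouse 3 alone. Both members of the cluster were detected together only in mouse 3, where the Ct of miR-191 minus that of miR-425 was −4.03 and −4.00. In these samples, miR-425 lay within 0.051 and 0.010 cycles of miR-186. On card A, 4 miRNA assays had a Ct under 35 in exactly these 3 samples. The other 3, named after their values were seen, were miR-9, miR-122 and miR-323-3p. Of the 375 miRNA assays of card A, 46 were detected in every sample but the Ly6Chigh sample of mouse 1, 45 in that sample alone, 40 in all 6 samples, 11 in both samples of mouse 2 alone and 153 in none.

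**Figure D1:**
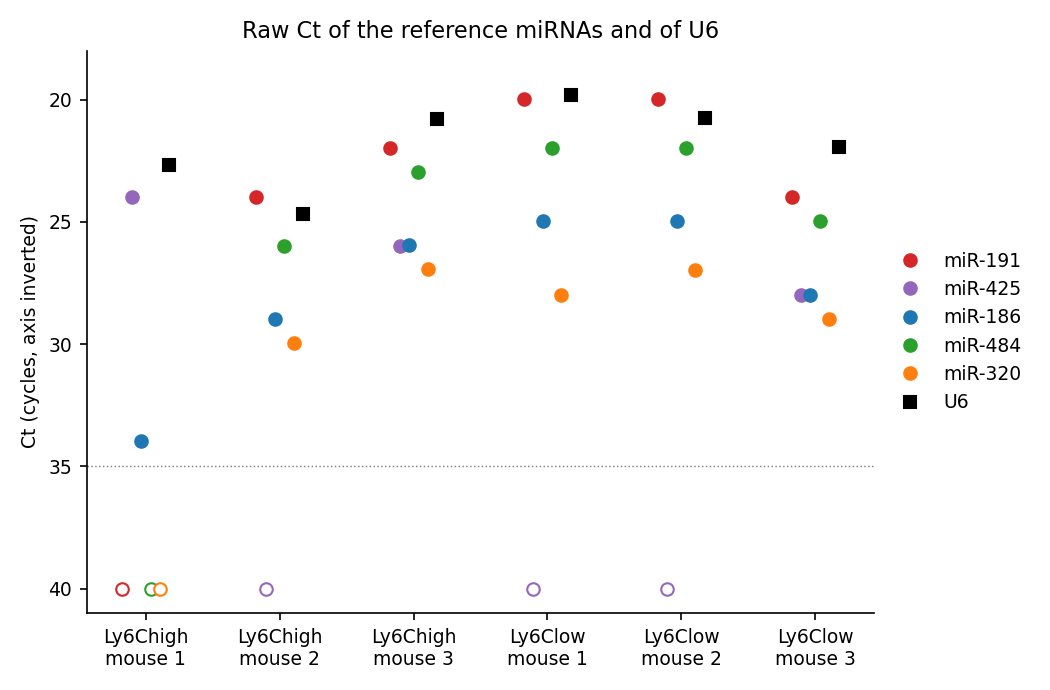
Raw Ct (cycles, axis inverted so that more template lies higher) of the 5 reference miRNAs (circles) and of U6 on card A (squares) in each sample. Open circles at 40 are undetected reactions, the dotted line marks a Ct of 35, and miR-425 is seen in 3 samples whereas miR-191, miR-484, miR-186 and miR-320 keep the same order in the 5 samples other than Ly6Chigh of mouse 1.

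The Ct values of the 5 assays fell in steps. So did those of other card A assays, such as miR-24 and miR-103, and the share over all assays was not counted. Of the 24 detected reactions of the 5 assays, 23 lay within 0.05 cycles of a whole number, so that differences between samples are read in steps of about 1 cycle and an SD of a few hundredths of a cycle means the same step in all samples, not a precision of that size. The Ct of U6 did not fall on whole cycles. On card A it was 22.66, 24.66 and 20.77 in the Ly6Chigh samples of mice 1, 2 and 3. In the Ly6Clow samples it was 19.80, 20.76 and 21.92. Its SD was 1.73 cycles and its range 4.85 over the 6 samples. The 4 U6 wells of card A held the same value in every sample, whereas those of card B differed by up to 0.22 cycles. The 4 card A entries are thus not read as separate measurements. The highest U6 Ct was that of the Ly6Chigh sample of mouse 2 and the lowest that of the Ly6Clow sample of mouse 1. Of the other endogenous control assays, the small nucleolar RNAs snoRNA135, snoRNA202 and U87 and the Y1 RNA, on either card, none had a Ct under 35 in all 6 samples. On card A, snoRNA202 had a Ct of 31.92, 22.97 and 40 in Ly6Chigh and of 30.96, 18.99 and 40 in Ly6Clow monocytes, and snoRNA135, U87 and Y1 were each under 35 in both samples of mouse 2 and in no other. Mouse 3, the only mouse with miR-425 in both subsets, had no endogenous control but U6 under 35 on either card.

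The order of levels was the same in the 5 samples other than Ly6Chigh of mouse 1. By median Ct over these 5, miR-191 came first at 21.97, then miR-484 at 22.98, miR-186 at 25.95 and miR-320 at 27.98. Neighbours in this order differed by 0.97 to 2.02 cycles (miR-191 and miR-484), 2.98 to 3.02 cycles (miR-484 and miR-186) and 0.99 to 3.02 cycles (miR-186 and miR-320), always in the same direction. The SD of these differences was 0.559, 0.0179 and 0.905 cycles, each smaller than the gap it belongs to. As each assay amplifies with its own efficiency, this order is one of Ct and not of molecules.

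Expression relative to U6 was taken as −ΔCt, that is U6 Ct minus miRNA Ct, a log2 scale on which higher means more miRNA. On this scale the measured values of miR-191 lay around 0, that is at a Ct near that of U6. They were 0.68 and −1.20 in the Ly6Chigh samples of mice 2 and 3 and −0.17, 0.80 and −2.07 in the Ly6Clow samples of mice 1, 2 and 3. The undetected reaction of the Ly6Chigh sample of mouse 1 is entered by the authors at −17.34, which is the floor of that card and not a measured level. With it, the mean was −5.95 ± 9.90 (SD, n = 3) in Ly6Chigh and −0.48 ± 1.46 (SD, n = 3) in Ly6Clow monocytes. The measured values of the subsets overlapped, the Ly6Clow samples of mice 2 and 3 lying at either end of the 5.

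Expression of miR-186, the only member with a signal in all 6 samples, was −11.30, −4.30 and −5.18 in Ly6Chigh and −5.16, −4.20 and −6.06 in Ly6Clow monocytes of mice 1, 2 and 3. The first of these lay far below the others. The means were −6.93 ± 3.81 (SD, n = 3) and −5.14 ± 0.93 (SD, n = 3). miR-484 was at the floor in the Ly6Chigh sample of mouse 1, at −1.31 and −2.20 in the other Ly6Chigh samples and at −2.18, −1.22 and −3.04 in the Ly6Clow samples. Its values kept the order of those of miR-186 in these 5 samples, with mouse 2 highest in either subset.

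miR-320 was likewise at the floor in the Ly6Chigh sample of mouse 1. Its expression was −5.30 and −6.17 in the Ly6Chigh samples of mice 2 and 3 and −8.18, −6.21 and −7.05 in the Ly6Clow samples of mice 1, 2 and 3. The measured Ly6Chigh values lay above the Ly6Clow values, with a gap of 0.04 between the nearest of them. These were the Ly6Chigh sample of mouse 3 and the Ly6Clow sample of mouse 2. Their Ct of 26.94 and 26.97 is the same step, so that their order is not resolved. For miR-425 the detected values were −1.31 and −5.23 in Ly6Chigh monocytes of mice 1 and 3 and −6.07 in Ly6Clow monocytes of mouse 3.

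**Figure D2:**
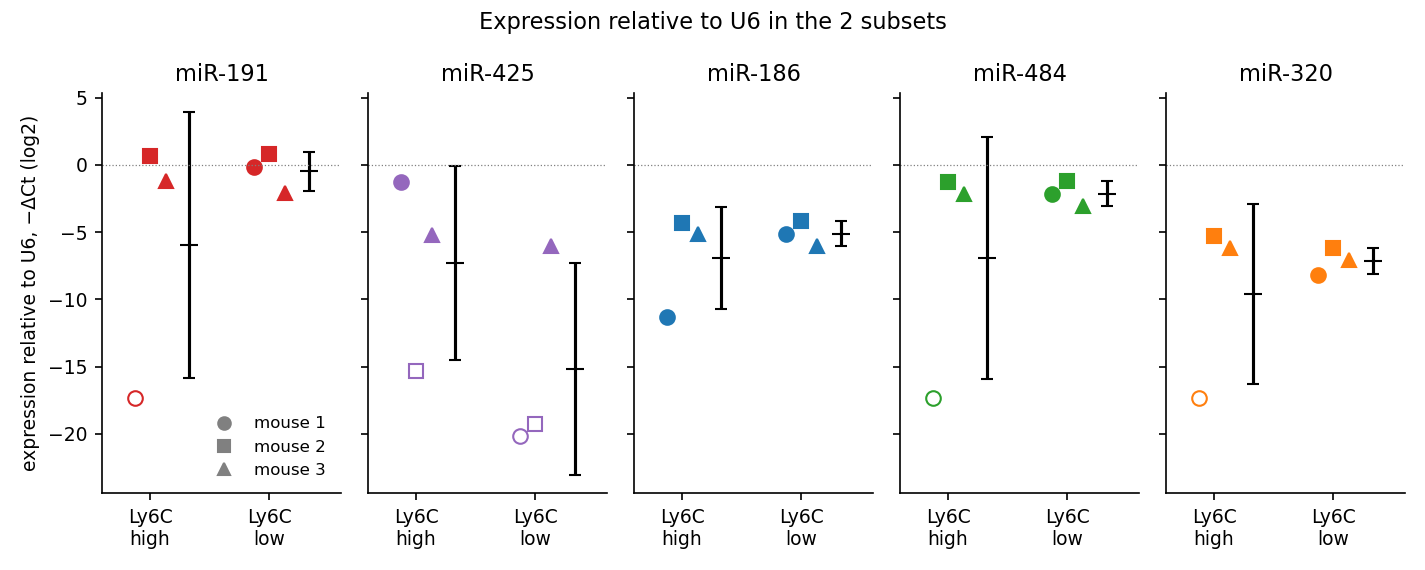
Expression relative to U6 (−ΔCt, log2) of each reference miRNA in the 3 Ly6Chigh and the 3 Ly6Clow samples, with 1 symbol per mouse, open symbols for undetected reactions at the floor, and black bars for mean ± SD (n = 3, floor values included). The wide bars of Ly6Chigh monocytes come with the floor values of mouse 1 (its low measured value for miR-186), and for miR-425 with the floor value of mouse 2, those of Ly6Clow with floor values of mice 1 and 2.

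To ask whether the subsets differed, limma was run on −ΔCt of the 201 assays detected in 3 or more of the samples. All 5 reference miRNAs passed this filter, miR-425 with the least number of samples it allows. None of the 5 differed between Ly6Chigh and Ly6Clow monocytes at a limma Benjamini-Hochberg adjusted p of 0.05 or less, as was the case for 0 of the 201 assays (0.00%), and at an unadjusted p under 0.05 there were 0 of the 5 against 0.995% of all assays. For each of the 5 the limma adjusted p was 0.985. The log2 difference (Ly6Chigh minus Ly6Clow) was −5.47 (standard error 4.92) for miR-191, −4.80 (standard error 4.49) for miR-484, −2.46 (standard error 3.48) for miR-320, −1.79 (standard error 2.28) for miR-186 and 7.87 (standard error 5.25) for miR-425. The median over the 5 was −2.46, against −0.45 over all 201 assays. With 2-sided exact permutation tests over the 6 samples, p was 0.6 for miR-191, miR-484 and miR-186, 1 for miR-320 and 0.2 for miR-425, where 0.1 is the smallest p possible. In none of the 5 did the Ly6Chigh values lie wholly above or wholly below the Ly6Clow values, which was found for 2.99% and 2.49% of the 201 assays.

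The size and the sign of these differences rested on the Ly6Chigh sample of mouse 1. Without it, the log2 difference was 0.22 (standard error 1.31) for miR-191, 0.39 (standard error 0.98) for miR-484, 0.40 (standard error 0.98) for miR-186 and 1.41 (standard error 1.00) for miR-320, so that all 4 turned from negative to positive, with limma adjusted p of 0.997, 0.997, 0.997 and 0.965. The median difference of all 201 assays in this fit was 0.63. miR-425 stayed higher in Ly6Chigh monocytes, at 4.88 (standard error 5.90, limma adjusted p 0.997), a value that sets 1 detected and 1 undetected Ly6Chigh reaction against 1 detected and 2 undetected Ly6Clow reactions. In a 2-sided exact permutation test of the 5 samples, in which p cannot be under 0.2, p was 0.2 for miR-320, 0.4 for miR-425 and 1 for the other 3. A Ly6Chigh group wholly above the Ly6Clow group was found in 33.7% of the 86 card A assays with a Ct under 35 in these 5 samples, and a Ly6Chigh group wholly below in 4.65%. miR-320 is among the former, but only by a gap smaller than the steps of its Ct.

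Within mice 2 and 3, the 4 miRNAs moved by about whole cycles and by like amounts, whereas in mouse 1 only miR-186 was measured in both samples. In mouse 1, the raw Ct of the Ly6Chigh sample exceeded that of the Ly6Clow sample by 8.999 cycles for miR-186 and by 2.86 for U6. Relative to U6, miR-186 thus differed by −6.14 on the log2 scale. For miR-191, miR-484 and miR-320, the Ly6Chigh reaction of mouse 1 was undetected and entered at 40. Their differences of 20.03, 18.01 and 12.02 cycles are thus 40 minus the Ly6Clow Ct and not measured amounts. In mouse 2, the raw Ct of the Ly6Chigh sample exceeded that of the Ly6Clow sample by 4.01 cycles for miR-191, 3.99 for miR-186, 3.99 for miR-484 and 2.99 for miR-320, and by 3.89 for U6. In mouse 3 it was lower instead, by −2.02 cycles for miR-191, −2.02 for miR-186, −1.98 for miR-484, −2.03 for miR-320 and −1.98 for miR-425, and by −1.15 for U6. The direction of the raw difference thus turned between the mice for the 4 miRNAs and for U6 as well. miR-425 was undetected in both samples of mouse 2. In mouse 1, the median raw difference over the 86 card A assays was 9.02 cycles, with 46 of them undetected in the Ly6Chigh sample and entered at 40. This median was 3.01 cycles in mouse 2 and −1.99 in mouse 3. Rounded to whole cycles, the pair of steps of miR-191, miR-186 and miR-484 (4 and −2) was found in 11 of the 86 assays and that of miR-320 (3 and −2), the most frequent of all, in 17. Relative to U6, the differences in mouse 2 were −0.12, −0.10 and −0.09 for miR-191, miR-186 and miR-484 and 0.90 for miR-320 on the log2 scale, and in mouse 3 they were 0.87, 0.88, 0.83 and 0.88. In mouse 3, miR-425 differed by 0.84. Of the 4 miRNAs, 1 (miR-320) was higher in Ly6Chigh monocytes in both mice, as were 43.0% of the 86 assays, and 0 were lower in both, against 22.1%. The differences of the 4 relative to U6 are smaller than a Ct step of about 1 cycle. Their signs are thus not resolved, and the counts rest on these signs.

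**Figure D3:**
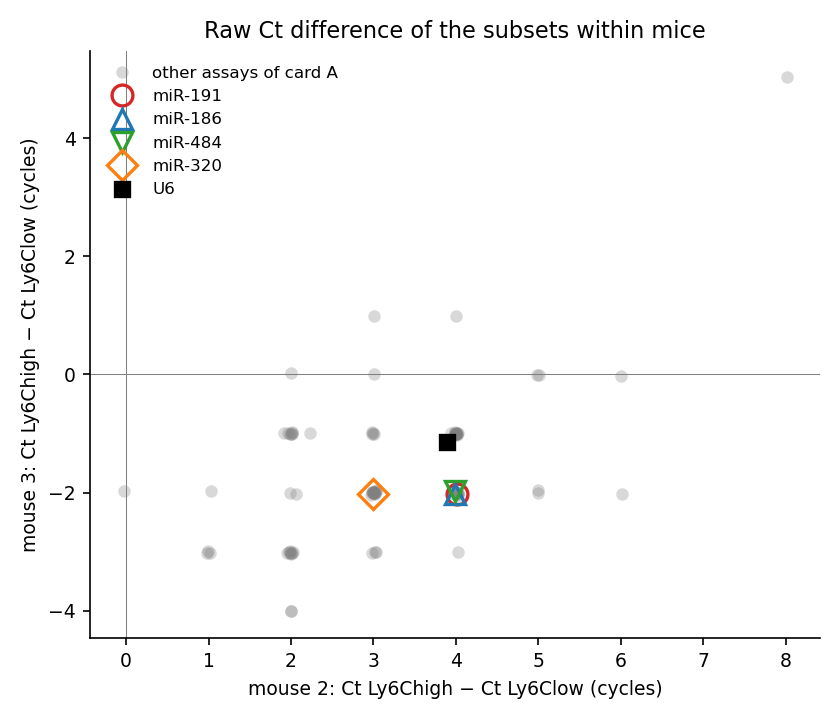
Raw Ct of the Ly6Chigh sample minus that of the Ly6Clow sample (cycles) in mouse 2 (horizontal) and mouse 3 (vertical) for 86 card A assays, the 4 reference miRNAs among them, and for U6. miR-191, miR-186 and miR-484 lie on the same point near 4 and −2, miR-320 near 3 and −2, and U6 at 3.89 and −1.15.

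The difference in Ct of 2 assays on the same card of the same sample does not depend on U6 and, as far as both assays amplify with the same efficiency (which was not tested), not on how much RNA was loaded. Its SD over samples shows how far both keep step. Over the 5 samples other than Ly6Chigh of mouse 1, miR-186 and miR-484 were nearly locked together. The Ct of miR-186 exceeded that of miR-484 by 2.99 and 2.98 cycles in the Ly6Chigh samples of mice 2 and 3 and by 2.98, 2.98 and 3.02 in the Ly6Clow samples of mice 1, 2 and 3, an SD of 0.0179. Such a constant difference, with an SD under 0.05, was found in 1 of the 6 pairs that the 4 miRNAs form and in 2.13% of the 3655 pairs of the 86 assays, whose median SD was 1.01. In the Ly6Chigh sample of mouse 1 the pair came apart, with miR-186 detected and miR-484 not.

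Over the same 5 samples, miR-191 kept step with miR-186 and miR-484 in all but those of mouse 3. In the Ly6Chigh sample of mouse 1, where miR-191 and miR-484 were undetected and miR-186 was not, no such difference was measured. Its Ct minus that of miR-186 was −4.98, −4.99 and −5.00 cycles in the Ly6Chigh sample of mouse 2 and the Ly6Clow samples of mice 1 and 2, but −3.98 and −3.99 in the Ly6Chigh and Ly6Clow samples of mouse 3. Both subsets of mouse 3 thus had 1 step less of miR-191 against miR-186, and the SD of the pair was 0.551. Against miR-484 the SD was 0.559. Both samples of mouse 3 lay apart from the other 3 samples here, and the subsets did not.

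miR-320 varied more against the other 3. The Ct of miR-186 minus that of miR-320 was −1.003 and −0.986 cycles in the Ly6Chigh samples of mice 2 and 3 and −3.017, −2.004 and −0.989 in the Ly6Clow samples of mice 1, 2 and 3. The Ly6Clow samples of mice 1 and 2 were those with less miR-320 relative to miR-186. The SD was 0.905 against miR-186, 0.897 against miR-484 and 1.32 against miR-191, the largest of the 6 pairs. Relative to U6, the SD over the 5 samples was 0.75 for miR-484, 0.76 for miR-186, 1.08 for miR-320 and 1.23 for miR-191, so that miR-186 and miR-484 followed each other more closely than either followed U6.

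**Figure D4:**
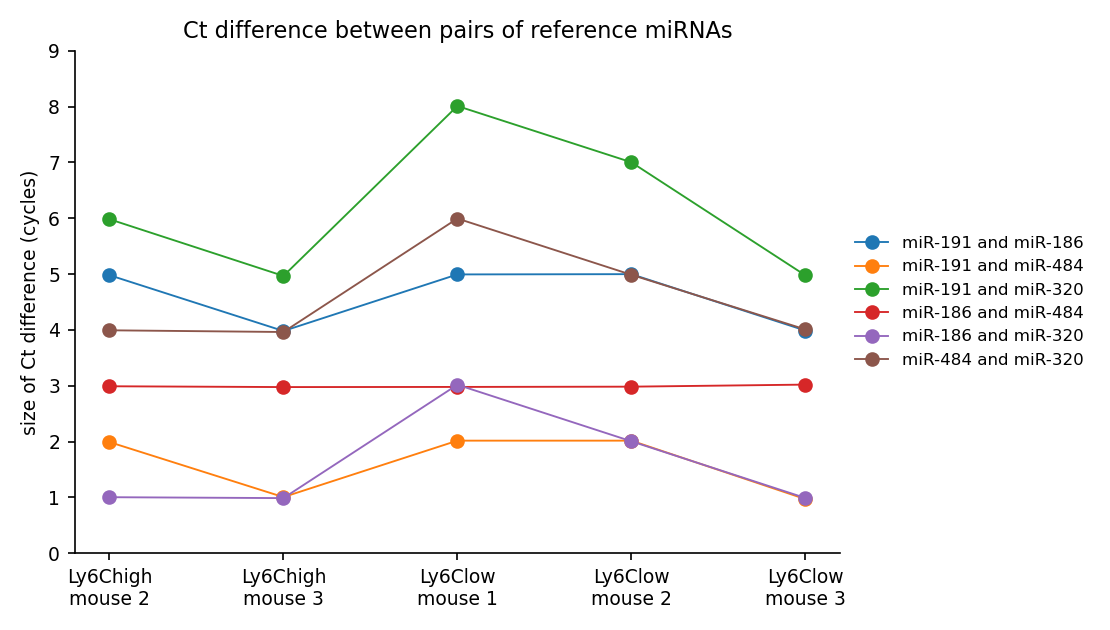
Size of the Ct difference (cycles) between the miRNAs of each of the 6 pairs formed by miR-191, miR-484, miR-186 and miR-320 in the 5 samples other than Ly6Chigh of mouse 1 (lines join the points of a pair and have no order). The pair of miR-186 and miR-484 stays at 2.98 to 3.02 in every sample, and the pair of miR-191 and miR-320 moves between 4.97 and 8.01.

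Stability against the rest of the card was described by M, the mean SD of the Ct differences of an assay with all card A assays that had a Ct under 35 in the samples compared, as in the geNorm method. A low M means that an assay keeps step with the others. Over the 5 samples and 86 assays, M was 0.900 for miR-484 (rank 21 of 86), 0.907 for miR-186 (rank 22), 0.919 for miR-320 (rank 27) and 1.23 for miR-191 (rank 64), with a median of 1.00 and a range of 0.775 to 3.63. Of the 4, 3 thus lay below the median of all assays and miR-191 above it. miR-425, undetected in 3 of these samples, was at 7.32, above all 86. U6, set against the same 86 assays, had an M of 1.06, with 51 assays below it. Because 86 assays share 5 samples, these ranks are a description of these samples and were not tested. With Ct in steps of about 1 cycle, M values as close as those of miR-484 and miR-186 cannot be put in order. The ranks differ with the measure, since 55 of the 86 assays had a lower SD relative to U6 than miR-320, 27 a lower one than miR-186, 17 than miR-484 and 67 than miR-191. In raw Ct, 13 of the 86 had a lower SD than miR-320 (1.31 cycles) and 68, 69 and 76 a lower one than miR-484 (1.81), miR-186 (1.82) and miR-191 (2.01), against an SD of 1.87 for U6.

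**Figure D5:**
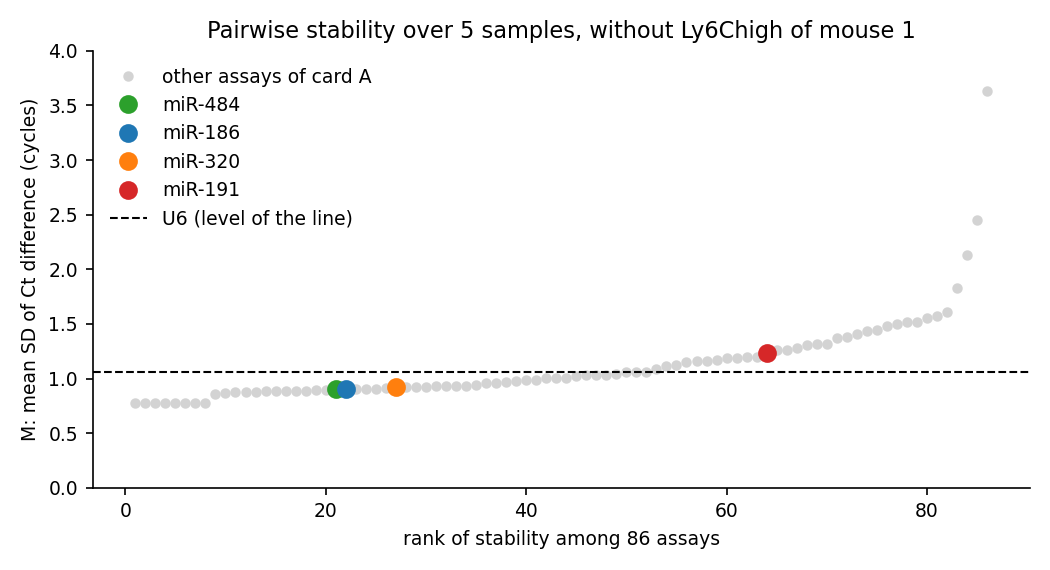
M, the mean SD (cycles) of the Ct differences of an assay with the other card A assays, for 86 assays in order of rank over the 5 samples other than Ly6Chigh of mouse 1, with the 4 reference miRNAs in colour and U6 as a dashed line. miR-484, miR-186 and miR-320 lie at 0.900 to 0.919, below U6 at 1.06, and miR-191 lies above it at 1.23.

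The lowest M of the card over these samples was that of miR-181a, miR-328, miR-103, miR-20a and miR-10a, at 0.775 to 0.777. Next came miR-148b, let-7d and miR-331-3p, at 0.777 to 0.779. The steps of 1 cycle do not allow these M values to be put in order. Over all 6 samples, where only 40 assays of card A were under 35, the lowest were those of miR-331-3p, let-7d, miR-30b, let-7c and let-7e, and that of miR-331-3p was 1.37. In that set miR-186 was at 2.55 (rank 35 of 40), against a median of 1.74 and 1.51 for U6. The undetected reactions put miR-320, miR-484, miR-191 and miR-425 at 4.18, 5.99, 6.67 and 8.47, above each of the 40, values that depend on the floor of 40 cycles.

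The assays that followed each reference miRNA most closely were sought on card A by the SD of the Ct difference. Over the 5 samples and 82 assays other than the members, 4 assays each kept a constant difference (SD under 0.05) with miR-186 and with miR-484. Among them were miR-146b (SD 0.0107) and let-7e (0.0163) for miR-186, and miR-146b (0.0150) and let-7b (0.0196) for miR-484, SDs that the steps of 1 cycle do not allow to be put in order. For miR-320 the nearest was miR-872, at 0.00890, and then miR-152, at 0.451. miR-191 had no assay that kept a constant difference with it, the nearest being miR-140 at 0.452 and miR-195 at 0.456. For miR-425 the nearest, miR-99a and miR-100, were at 5.95 and 6.01, which is no likeness. Over all 6 samples the nearest to miR-186 were miR-24 (0.525) and miR-140 (0.838). miR-140 was also the nearest to miR-191 (3.63), miR-484 (2.98) and miR-320 (1.49) and miR-18a that to miR-425 (6.37), values that rest on the floor. The next were miR-150 for miR-191 (4.63), miR-24 for miR-484 (4.03), miR-148a for miR-320 (2.26) and miR-125b-5p for miR-425 (6.71).

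Other miRNAs in common use as references were examined as a list of 11 (miR-16, miR-103, miR-24, miR-26b, miR-93, miR-25, miR-92a, miR-30c, miR-30e, miR-23a and let-7a). Of these, 5 had a Ct under 35 in all 6 samples and 7 in the 5 samples other than Ly6Chigh of mouse 1, and 9 were tested with limma, of which 0 passed in either direction. For the 7, the median M was 0.97 and the median SD relative to U6 0.79, against 1.00 and 0.98 for the 86 assays. The M of 6 of the 7 was lower than that of miR-191, the exception being miR-16 at 1.52. The lowest was miR-103 at 0.776. Of all 86 assays, miR-30c and miR-142-5p were the closest to U6, with an SD relative to it of 0.43 and 0.45. The steps of 1 cycle do not allow these SDs to be put in order. miR-30c had a Ct of 23.97, 24.98 and 20.97 in Ly6Chigh and of 20.95, 20.97 and 21.97 in Ly6Clow monocytes. It was thus also detected in the Ly6Chigh sample of mouse 1 at a level like that of the other samples.

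As a joint reference, the mean Ct of miR-191, miR-186, miR-484 and miR-320 was 27.2 and 24.5 in the Ly6Chigh samples of mice 2 and 3 and 23.7, 23.5 and 26.5 in the Ly6Clow samples of mice 1, 2 and 3. The SD of its difference from the median of the 86 assays was 0.466 cycles over these samples, against 0.598 for U6, and the 2 references differed from each other with an SD of 0.841. The 4 miRNAs are themselves among the 86. This reference was also put in place of U6, with each member set against the other 3, in a fit of these 5 samples added after seeing the data. The log2 difference between the subsets was then −0.51 (standard error 0.75) for miR-191, −0.29 (0.41) for miR-484, −0.27 (0.42) for miR-186 and 1.07 (0.85) for miR-320. In this fit, 0 of 127 card A assays passed an adjusted p of 0.05 in limma, with 10 at an unadjusted p under 0.05. By construction these 4 differences sum to 0, so that the negative signs of the other 3 follow from the larger difference of miR-320. Over all 6 samples, with each member set against all other members, miR-425 among them, the differences were unlike these. They were −5.18 for miR-191, −4.34 for miR-484, −0.57 for miR-186, −1.41 for miR-320 and 11.50 for miR-425.

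The opposite strands of miR-191 and miR-186 gave no signal. Their assays, miR-191# and miR-186#, where # is the mark on the cards for the less abundant strand, are on card B and were undetected in all 6 samples. A human assay named miR-425, without such a mark, is also on card B and was undetected in all 6 samples, including the 3 in which the mouse assay was detected. The arm that either of these assays reads is not given in the sources used here. RefSeq lists the 3′ arms of miR-191 and miR-186 as follows, with the seed in capitals, to show that they share no seed with the strands above.
miR-191-3p: gCUGCACUuggauuucguuccc
miR-186-3p: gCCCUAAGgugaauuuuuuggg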

How the data were processed

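RNA of the 6 samples was reverse transcribed with the Megaplex rodent Pool A primers and preamplified, per the labels, which name this pool only although 2 cards are listed. The authors' deposited values are raw Ct, a log2 scale with the sign turned and undetected reactions at 40, and ΔCt, a log2 value from which the authors subtracted U6 of the same sample and card. The subtracted value was checked to be constant per sample and card. Another table, of the authors' own ratios between the subsets within mice, was not used. The software and threshold behind Ct are not given in the sources used here.

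The members, lists and tests were chosen with earlier results of these data known. Samples were grouped by their labels. From 768 wells, 18 control wells were left out, and of 750 miRNA assays the 201 below Ct 35 in 3 or more samples entered a linear model (limma 3.58.1, R 4.3.3, moderated by eBayes), with Benjamini-Hochberg adjustment and without a block. Same-numbered samples come from the same mouse, per the labels, and their deviations from the subset means correlated at 0.32, 0.62 and 0.72 for mice 1, 2 and 3 across 201 assays. SDs, M and exact permutation tests were computed with Python 3.11.15, pandas 2.3.3, numpy 2.4.6 and scipy 1.17.1, and figures drawn with matplotlib 3.10.9. Both computations were tested on simulated data. Named miRNAs are the 5 members, the endogenous controls, the 2 nearest assays of each member and the 5 assays with the lowest M over 6 samples, the list of 11 (with values for 3) and the cell type markers. Alternatives were other normalizations, filters, floors, a block for the mouse, moderation settings and samples left out. Those without the Ly6Chigh sample of mouse 1 that use another reference, and the missing card A values with the block, were added after seeing the data, as were the nearest assays and lowest M over the other 5 samples and the assays detected in the same samples as miR-425. Precision is limited by the few arrays and by Ct steps of about 1 cycle in the 5 assays.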

Additional observations from a re-analysis of the deposited data

How the results depend on the processing

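No assay passed the threshold under any of the 22 alternatives, and the lowest limma adjusted p was 0.15, without the Ly6Chigh sample of mouse 3. Between 1 and 19 assays had an unadjusted p under 0.05, against 2. With the mouse as a replicate block, the count was 0, the difference of miR-191 stayed at −5.47 (limma adjusted p 0.949) and no other call changed. With samples left out in turn, the subset difference ranged from −8.79 to 0.22 (miR-191), −3.10 to 0.40 (miR-186), −7.62 to 0.39 (miR-484), −4.61 to 1.41 (miR-320) and 4.88 to 12.42 (miR-425), each upper end of the first 4 being the fit without the Ly6Chigh sample of mouse 1. The sign of miR-191, miR-484 and miR-320 also turned when undetected reactions were treated as missing values (0.22, 0.39 and 1.41). It turned for miR-191, miR-186, miR-484 and miR-320 with the card A values of that sample missing (0.22, 0.40, 0.39 and 1.41), with these missing and the block (0.38, 0.39, 0.37 and 0.89) and without mouse 1 with the block (0.38, 0.39, 0.37 and 0.89), and for miR-320 against the other 3 members (1.07). miR-425 kept its sign, at 2.80 with undetected reactions as missing, 4.88 with the card A values of that sample missing and 2.36 under both settings with the block. These settings have in common that the floor values or the card A values of the Ly6Chigh sample of mouse 1 are absent. Over 6 samples, the other normalizations kept all 5 signs but not the sizes: miR-186 went from −1.79 to −3.66 in raw Ct and −0.57 against the other members, and miR-320 from −2.46 to −4.33 and −1.41. With every Ct over 35 set to 35, the differences of miR-191, miR-484, miR-320 and miR-425 were −3.81, −3.14, −0.79 and 6.21. A Ct under 35 in all samples as the filter left a value for miR-186 alone. The adjusted p of the 5 ranged from 0.376 to 1 over all alternatives. The SD of −ΔCt over 6 samples was 7.004 (miR-191), 8.03 (miR-425), 2.67 (miR-186), 6.30 (miR-484) and 4.50 (miR-320), and with samples left out it ranged from 1.23 to 7.81, 7.15 to 8.69, 0.76 to 2.98, 0.75 to 6.99 and 1.08 to 5.03. The ranges in place of SDs were 18.13, 18.89, 7.10, 16.12 and 12.03. Against the other members, miR-320 had an SD of 2.01. Without the Ly6Chigh sample of mouse 1, the SD for miR-191, miR-186, miR-484 and miR-320 was 1.03, 0.50, 0.50 and 0.55 against the card median and 0.78, 0.24, 0.23 and 1.03 against the other 3 members, and in raw Ct it was 2.01, 1.82, 1.81 and 1.31. M with samples left out ranged from 1.23 to 7.59 (miR-191), 7.32 to 8.93 (miR-425), 0.907 to 3.08 (miR-186), 0.900 to 6.88 (miR-484) and 0.919 to 4.82 (miR-320), and against the members alone that of miR-186 was 5.04.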
